A study of Mus musculus with 12 samples.

Results

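The genes described here are the 8 S100 calcium-binding proteins S100a1, S100a4, S100a6, S100a8, S100a9, S100a10, S100a11 and S100a13, taken by their row names from a table of 27457 gene symbols measured in single cells of mouse tumors. All 8 were in the table, and their unique molecular identifier (UMI) counts were summed over the cells of each cluster and of each tumor. The table held 9 further S100 genes. Their levels over all cells ran up to 1.91 CPM (counts of the gene per 1000000 UMIs of the same cells) for S100a16, 0.11 CPM for S100a14 and under 0.5 CPM for the rest.

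S100 proteins are small proteins with EF-hand loops that change shape when they bind calcium and then attach to partner proteins such as annexins, the giant scaffold Ahnak and non-muscle myosin. S100a8 and S100a9 form calprotectin, a dimer stored in large amounts in neutrophils and monocytes that sequesters metal ions and, once released, signals through Tlr4 and the receptor Ager. S100a10 is the exception of the family: it is held in the calcium-on shape without calcium and joins annexin A2 at the cell membrane.

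MC38 mouse colon carcinoma cells were placed under the skin of female mice, aged 8 to 12 weeks, that were either C57BL/6J or F1 offspring of C57BL/6J and 1 of 7 Collaborative Cross strains, inbred lines that mix the genomes of several founder strains. Each tumor was taken 48 h after a single 200 µg dose of an isotype control antibody or of aPD1, an antibody against the checkpoint receptor PD-1, and sorted cells were mixed to be 90% CD45+ leukocytes. The 48 tumors were read in 12 pools of 4 hashtagged specimens each. A tumor was the unit of replication in the tests, except where counts were summed per strain. Binomial intervals on shares take single cells or UMIs as independent. Responder hosts were the F1 mice with CC001/UncJ, CC002/UncJ and CC075/UncJ (10 isotype and 10 aPD1 tumors), and non-responder hosts those with CC036/UncJ, CC079/TauUncJ and CC080/TauUncJ (9 and 9), each written as C57BL/6J x the strain. C57BL/6J itself and C57BL/6J x CC007/UncJ carried no class (5 and 5). The class is the study's own and was set in other animals, so it describes a host strain, not the outcome of the tumor sampled, and a difference between classes is a difference between 3 strains and 3 other strains. No hashtag was used for both treatments, so hashtag and treatment cannot be told apart.

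The 93126 cells held a median of 3333.5 UMIs each, and tumors held 53 to 3082 cells and 88816 to 17713491 UMIs. Of these, 3 tumors had under 500 cells, 2 tumors of C57BL/6J x CC080/TauUncJ hosts (isotype in pool 3, aPD1 in pool 4) carried the same animal identifier, and 4990 barcode sequences occurred in more than 1 library (10176 cells, 10.9%). The 27 deposited clusters carried numbers only. By their markers 7 of them were macrophage-like, which with cluster 5 made 64700 cells (69.5%), 8 were T/NK-like (10407 cells, 11.2%) and cluster 16 was granulocytic-like (529 cells). Macrophages here include monocytes, which the markers do not set apart. The leading genes of cluster 4 included Chil3, Ifitm6, Hp, Thbs1 and Vcan, all on the list of monocyte genes used below. Cluster 24 (1614 cells), led by the NK cell genes Ncr1, Klrb1c and Prf1, with Nkg7 at 1479 and Cd3e at 19.3 CPM, was left unnamed by the markers and stood outside the T/NK-like class. The markers left cluster 5 unnamed, since hemoglobin and immunoglobulin genes were among its leading genes. It was counted with the macrophages because the study does so. Its levels of Lyz2 (6305 CPM) and Csf1r (447 CPM) were high, and results without it are given where they bear on a call.

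All 8 genes lie on chromosome 3 within 3053.6 kb (GRCm38.p6, RefSeq). S100a1 (90511034-90514330, minus strand) and S100a13 (90514233-90524581, plus strand) start head to head and overlap, followed by S100a4 (90603770-90606045), S100a6 (90612894-90614414), S100a8 (90669071-90670034) and S100a9 (90692630-90695721, minus strand). S100a11 (93520496-93526288) and S100a10 (93555117-93564645) lie farther along the chromosome. Whether the counting used the strand is not given in the sources used here. Without strand, reads in the 98 bases shared by S100a1 and S100a13 cannot be assigned to either gene.

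The 200 bases before the RefSeq start of S100a4, S100a8 and S100a9 are printed because the results turn on these genes. Each reads 5′ to 3′ on the strand of its gene, and capitals mark a TATA box (TATAAA) or the core of the PU.1 site (GAGGAA, here read as TTCCTC on the opposite strand).

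S100a4 (chr3:90603570-90603769, plus strand): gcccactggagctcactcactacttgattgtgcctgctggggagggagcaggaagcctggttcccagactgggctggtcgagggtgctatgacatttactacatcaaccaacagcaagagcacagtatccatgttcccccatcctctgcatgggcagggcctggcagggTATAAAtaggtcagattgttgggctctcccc

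S100a8 (chr3:90668871-90669070, plus strand): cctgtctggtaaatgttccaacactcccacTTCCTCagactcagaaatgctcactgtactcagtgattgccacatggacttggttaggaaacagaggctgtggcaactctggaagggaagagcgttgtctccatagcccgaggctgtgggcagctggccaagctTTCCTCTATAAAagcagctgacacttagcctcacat

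S100a9 (chr3:90695722-90695921, minus strand): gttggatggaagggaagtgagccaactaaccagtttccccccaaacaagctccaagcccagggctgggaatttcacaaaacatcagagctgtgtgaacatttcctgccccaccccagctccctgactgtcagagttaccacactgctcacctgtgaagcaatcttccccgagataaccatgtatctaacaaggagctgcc

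S100a4 held TATAAA 31 to 26 bases before its start. S100a8 held it 30 to 25 bases before its start, directly after a PU.1 core, and had a further PU.1 core at 170 to 165. In the 200 bases before S100a9 neither motif occurred, although it is the neighbor of S100a8 and its start is 26650 bases away. Over 32851 mouse promoters, searched on both strands in the 250 bases before the start, 12.4% held TATAAA and 23.3% held GAGGAA, so that a match is a description of the letters and not a site in use. The C/EBP motif TTGCNNAA, held by 9.56% of promoters, was found at 236 to 229 bases before S100a9 and in none of the 6 other promoters of the family listed. No promoter of S100a10 was listed.

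S100a1 and S100a13 share the stretch chr3:90514331-90514434 between the start of S100a1 and the start that the promoter table gives for S100a13, which lies inside its RefSeq gene span (104 bases, 58.7% GC, 3 CG pairs), printed 5′ to 3′ on the plus strand because each gene is read away from it.

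S100a1-S100a13 stretch: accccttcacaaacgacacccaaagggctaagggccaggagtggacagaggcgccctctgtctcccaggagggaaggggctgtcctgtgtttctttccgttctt

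The levels of the genes set the cell classes apart, and they are given as a description, since the clusters were made from the expression of these cells. Over all cells S100a6 stood at 3673 CPM, S100a11 at 1516, S100a4 at 1216, S100a10 at 1041, S100a13 at 214, S100a1 at 87.7, S100a8 at 45.8 and S100a9 at 42.2 CPM. These are shares of each gene's own molecules among all UMIs, and since the molecules were counted at the 5′ end and not per length, the genes are compared across cells and not with each other.

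**Figure D1:**
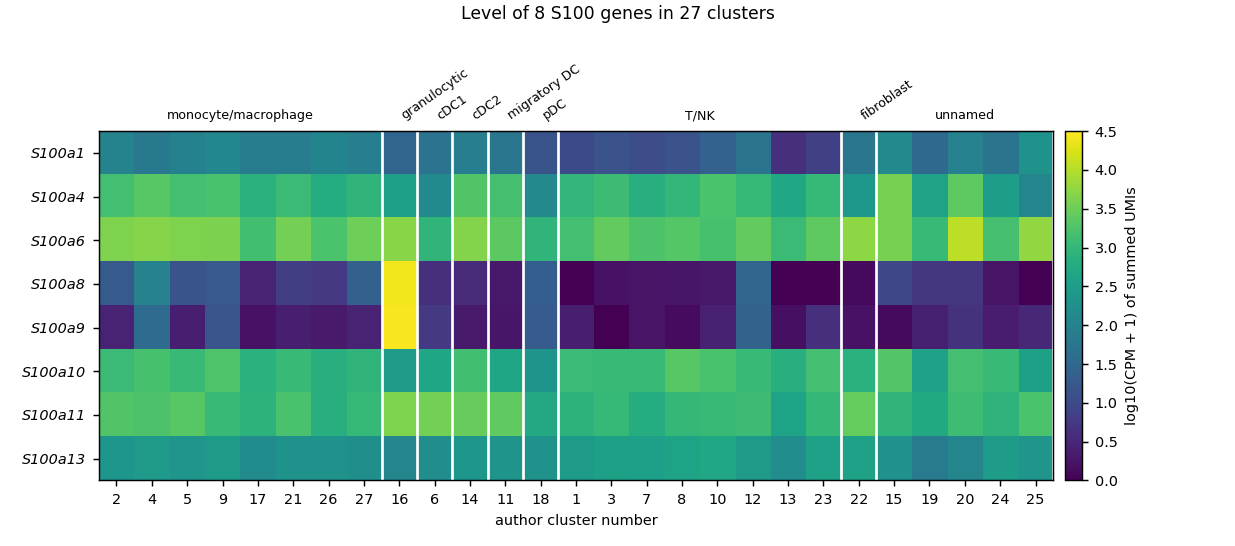
Heatmap of log10(CPM + 1) of the 8 genes (rows) in the 27 deposited clusters (columns, grouped by the cell class their markers give). S100a8 and S100a9 are bright (high) in cluster 16 alone, at 25013 and 28814 CPM, while S100a4, S100a6, S100a10 and S100a11 are spread over all clusters.

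S100a8 and S100a9, the calprotectin pair, were concentrated in the granulocytic-like cluster 16. S100a8 stood there at 25013 CPM, and over the 7 tumors with at least 20 such cells it ran from 8452 over a median of 18139.8 to 53021 CPM. The next cluster, 4, stood at 98.7 CPM, with a median tumor at 8.40 CPM and 1 tumor at 2184 CPM. S100a9 stood at 28814 CPM in cluster 16 (7596, 22773 and 65673 CPM as the lowest, median and highest tumor) and at 36.5 CPM in cluster 4. Cluster 16 made up 529 cells and held 74.1% of all S100a8 and 92.8% of all S100a9 UMIs. The isotype tumor of C57BL/6J x CC001/UncJ in pool 12 alone held 115 of these cells. Over all its cells this tumor held 7825 of the 18977 S100a8 and 8548 of the 17468 S100a9 UMIs of the table. After each cell was thinned to 1000 UMIs, 86.9% of the cells of cluster 16 had a UMI of S100a8 and 86.9% of S100a9. The exact 95% binomial interval, taken over cells and not over tumors, was 80.5 to 91.8. Of its cells 153 were deep enough for that share, since their median was 815 UMIs, and 7883 of all cells (8.47%) were under 1000. Unthinned, the shares were 86.6% and 83.4%.

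S100a4, a protein of motile cells that binds non-muscle myosin, was highest in cluster 15 (3735 CPM, 3479.9 to 4608 over 5 tumors), followed by cluster 20 (2375 CPM, 289 to 3558 over 41 tumors), the macrophage-like cluster 4 (2143 CPM, 1033 to 2776 over 44 tumors) and the cDC2-like cluster 14 (1883 CPM, 1192 to 2297 over 44 tumors). Clusters 15 and 20 carried no cell type name by their markers, although Shisal2b, a marker of MC38 cells, stood at 97.8 CPM in cluster 20 and at most at 6.56 CPM elsewhere. Cluster 15 held the macrophage markers Lyz2 at 1117, Apoe at 642, Cd68 at 423 and Csf1r at 340 CPM, but was not counted with the macrophages. The fibroblast-like cluster 22, a cell type in which S100a4 is also known as Fsp1, stood at 251 CPM, and the lowest levels were in the cDC1-like cluster 6 (142 CPM), the pDC-like cluster 18 (128 CPM) and cluster 25 (113 CPM). Among macrophages the largest gap was between cluster 4 and cluster 26, which stood at 614 CPM (195 to 1359.5 over 47 tumors).

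S100a6, known as calcyclin for its link to proliferating cells, was highest in cluster 20 at 11326 CPM (1749 to 15533 over 41 tumors). It stood at 5530 CPM in the fibroblast-like cluster 22, at 5102 in the granulocytic-like cluster and at 871 CPM in both clusters 6 and 18. S100a10, the annexin A2 partner, was highest in the T/NK-like cluster 8 at 2137 CPM (822 to 3345 over 34 tumors), whose leading genes included Foxp3 and Ctla4 of regulatory T cells, and lowest in the granulocytic-like cluster at 293 and the pDC-like cluster at 215 CPM. S100a11, a partner of annexin A1, was highest in the granulocytic-like cluster at 4300 CPM (3235 to 5809 over 7 tumors) and in the cDC1-like cluster 6 at 3631 CPM (1185 to 6119 over 27 tumors). Cluster 6 was thus the second highest for S100a11 and among the lowest for S100a4 and S100a6.

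S100a13, which takes part in the export of proteins that lack a signal peptide, was higher in T/NK-like cells as a class (351 CPM) than in macrophages (210 CPM), with its highest level in cluster 10 at 495 CPM (384 to 636 over 7 tumors). S100a1, best known from heart muscle, went the other way between these classes, at 98.0 CPM in macrophages and 15.9 CPM in T/NK-like cells. Its highest cluster was cluster 25 at 194 CPM (2 tumors with at least 20 of its cells, 5.91 and 182 CPM). Among clusters with at least 5 such tumors the highest was cluster 15 (132 CPM), and by the tumor median it was cluster 9 (136 CPM). Cluster 25 met the marker rule for MC38 cells with 7 of 8 markers, but was left unnamed because Shisal2b was at 0 and the B cell genes Cd79a and Igkc were at 644 and 3211 CPM. The macrophage-like clusters 9, 26 and 2 stood at 127, 108 and 104 CPM of S100a1, while cluster 13 of the T/NK-like cells stood at 3 CPM. The 2 genes that start head to head were thus high in different classes. Over tumors with at least 20 cells, neighbors in each of these orders overlapped in their ranges, except that S100a13 in cluster 2 lay above cluster 25 (2 tumors) and that S100a8 and S100a9 in cluster 16 lay above every other cluster.

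Over the 27 clusters, on the log2(CPM + 1) scale, the level of S100a9 was most like those of Cxcr2 (Pearson r = 0.927), Wfdc21 (0.922) and Retnlg (0.916), all known from neutrophils, and S100a8 and S100a9 correlated with each other at 0.901. S100a4 was most like S100a10 (0.786), Eno1 (0.680) and Pgk1 (0.639), the last pair being enzymes of glycolysis. Over the macrophages of the 48 tumors S100a4 was again most like S100a10 (0.881), then S100a6 (0.850) and fibronectin, Fn1 (0.823). S100a8 and S100a9 correlated at 0.287 there, and S100a8 was most like Tcn2 (0.718), Mgst1 (0.700) and Wfdc21 (0.686). These values describe points that share libraries and depth, and carry no test.

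The calprotectin pair was counted in unequal amounts in macrophages. The granulocytic-like cells held 14066 UMIs of S100a8 and 16203 of S100a9, so that S100a9 was 53.5% of the pair (exact 95% binomial interval 53.0 to 54.1). In macrophages 4510 UMIs of S100a8 (15.4 CPM) stood against 954 of S100a9 (3.26 CPM), and S100a9 was 17.5% of the pair (16.5 to 18.5). T/NK-like cells held 89 and 82 UMIs, 48.0% S100a9 (40.3 to 55.7). Of those, 72 and 68 UMIs were in cluster 12 (535 cells), which also held Lyz2 at 2866, Apoe at 1813 and Csf1r at 211 CPM beside its T/NK markers, and 1 of its cells held 50 of the S100a8 UMIs. The other 7 T/NK-like clusters held 17 and 14 UMIs. The intervals take each UMI as an independent draw and do not cover the spread between cells or tumors. In macrophages 33 cells with at least 10 UMIs held 28.7% of the S100a8 UMIs. How well each gene is captured was not tested. Within each of the 12 pools the S100a9 share was lower in macrophages (1.39% to 26.7%) than in granulocytic-like cells (41.2% to 57.5%), and the ranges did not overlap.

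In single cells the pattern was the same. Of the granulocytic-like cells 421 held both genes, 37 S100a8 alone, 20 S100a9 alone and 51 neither. Of the macrophages 50 held both, 2284 S100a8 alone and 171 S100a9 alone. A UMI of S100a8 was seen in 3.61% of macrophages against 0.28% of T/NK-like cells, at median depths of 3615 and 1945 UMIs, and in 0.16% of T/NK-like cells outside cluster 12. Thinned to 1000 UMIs the shares were 1.18% and 0.12%, so that S100a8 in macrophages stood above the share in T/NK-like cells, while S100a9 stood at 0.11% and 0.07%. The pDC-like cells came closer, with thinned shares of 0.93% for S100a8 and 0.70% for S100a9. They held 34 and 30 UMIs (21.3 and 18.8 CPM), and 1 of their cells held 31 of the S100a8 UMIs. In the other classes outside the granulocytic-like cells, and in the unnamed clusters, the thinned S100a8 share ran from 0.08% to 0.22%.

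**Figure D2:**
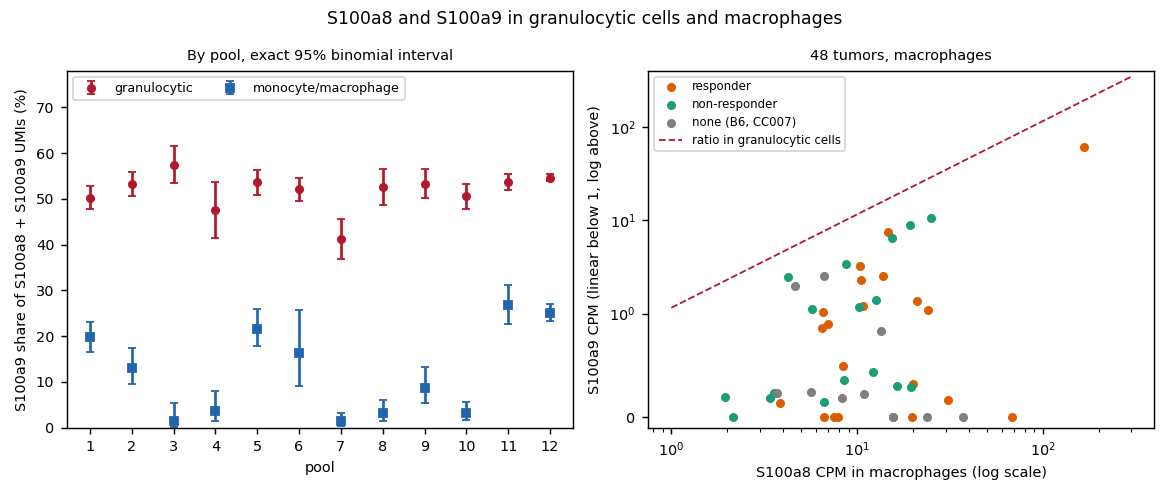
Left, S100a9 as a percentage of the S100a8 and S100a9 UMIs in each of 12 pools for granulocytic-like cells and macrophages, with exact 95% binomial intervals. Right, S100a8 against S100a9 in macrophages (CPM) of each of 48 tumors, where the dashed line is the ratio in granulocytic-like cells. The macrophage share is the lower one in all 12 pools, and the tumor farthest out is an isotype tumor of C57BL/6J x CC001/UncJ in pool 12, at 166.9 and 60.2 CPM.

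Over the 48 tumors S100a8 in macrophages ran from 1.95 CPM over a median of 10.4 to 166.9 CPM, and S100a9 from 0 over 0.40 to 60.2 CPM. The highest tumor, of a C57BL/6J x CC001/UncJ host given isotype in pool 12, held 1295 of the 4510 S100a8 UMIs and also 115 granulocytic-like cells (6.00% of its cells). Without it the S100a9 share in macrophages was 13.2% (12.1 to 14.3). Without the macrophages with at least 10 UMIs of either gene, 3194 S100a8 and 255 S100a9 UMIs were left, a share of 7.39% (6.54 to 8.32). An aPD1 tumor of C57BL/6J x CC075/UncJ in pool 10 held 186 UMIs of S100a8 and 1 of S100a9 in macrophages, and an aPD1 tumor of C57BL/6J x CC007/UncJ in pool 7 held 137 and 0.

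The share also differed among macrophage clusters. It was 7.25% in cluster 27, where 6.51% of cells had a UMI of S100a8, 9.27% in cluster 5, 9.5% in cluster 2, 19.8% in cluster 26, 27.02% in cluster 4 and 45.5% in cluster 9 (36.9 to 54.3). In cluster 9 all 61 S100a9 UMIs were in 5 cells, and 1 cell held 34 of the 73 S100a8 UMIs. In cluster 4, 20 cells with at least 10 UMIs held 75.2% of the S100a8 UMIs. This cluster, led by monocyte genes, held 1356 of the S100a8 and 502 of the S100a9 UMIs of the macrophages. Without cluster 4 the macrophage share was 12.5% (11.5 to 13.7), on 3154 and 452 UMIs. Other genes of neutrophils were in the macrophages in different proportions. Per 100 UMIs in granulocytic-like cells, macrophages held 32.1 of S100a8, 5.89 of S100a9, 1.43 of Retnlg (a secreted resistin-like protein), 10.1 of G0s2 (an inhibitor of lipolysis), 33.9 of the chemokine receptor Cxcr2, 66.2 of the iron-carrier binder Lcn2 and 84.8 of Wfdc21. Others on the list had more UMIs in the macrophages than in the far fewer granulocytic-like cells, with 201 of Mmp9, 747 of Il1r2, 1104 of the growth factor receptor Csf3r, 1346 of Ltf, 2203 of Mmp8 and 3731 of Gsr. Camp, Ngp and Ly6g stood at 1150, 44.4 and 43.5, on only 2, 9 and 23 UMIs in granulocytic-like cells, and Ltf rested on 13. T/NK-like cells held 0.63 of S100a8, 0.51 of S100a9, 0.29 of Retnlg, 0.85 of Wfdc21, 1.09 of Lcn2, 1.24 of G0s2, 2.26 of Cxcr2 and 0 of Camp and Ngp. They held more of the other genes, with 6.90 of Csf3r, 20.3 of Mmp8, 22.9 of Mmp9, 73.9 of Ly6g, 185 of Il1r2, 346 of Ltf and 369 of Gsr. The part of free RNA and of doublets in these counts was not tested, and no doublet caller was run.

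Between the classes, S100a4 was lower in the macrophages of responder hosts than of non-responder hosts. It stood at 608 CPM in the lowest responder tumor, 787 in the median and 1427 in the highest (mean 895 ± 249, SD, n = 20), against 694, 1365 and 1927 CPM in non-responder tumors (1328 ± 293, SD, n = 18). The groups overlapped, but 19 of 20 responder tumors were under the non-responder median, and the responder tumor was the lower one in 14 of 16 pairs of the same pool and treatment. The log2 difference was −0.52 ± 0.12 (SE), 0.70 times the non-responder level, with an adjusted p of 0.00375 by edgeR's quasi-likelihood test with Benjamini-Hochberg adjustment over 11560 genes. In this comparison 6.25% of genes were called (adjusted p under 0.05), 2.44% as lower and 3.81% as higher, and S100a4 was the 1 member called of 7 tested. The balance of directions depended on the scaling. After TMM scaling 282 genes were lower and 440 higher, against 494 lower and 314 higher with library size alone.

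The hosts limit that result. Summed per strain, with 3 strains against 3, the difference in S100a4 was −0.44 with an adjusted p of 0.786 (edgeR), and 4 genes were called in all. Within pools 1 to 5 it was −0.53 (adjusted p = 0.104) and within pools 8 to 12 −0.53 (0.0648), and in isotype tumors alone −0.48 (0.652) against −0.58 (0.012) in aPD1 tumors alone. Fitted directly, the S100a4 class difference changed between isotype and aPD1 tumors by −0.10 ± 0.24 (adjusted p = 0.984, edgeR), which did not pass the test. Without cluster 5 the class difference was −0.53 (0.00545 over 38 tumors).

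**Figure D3:**
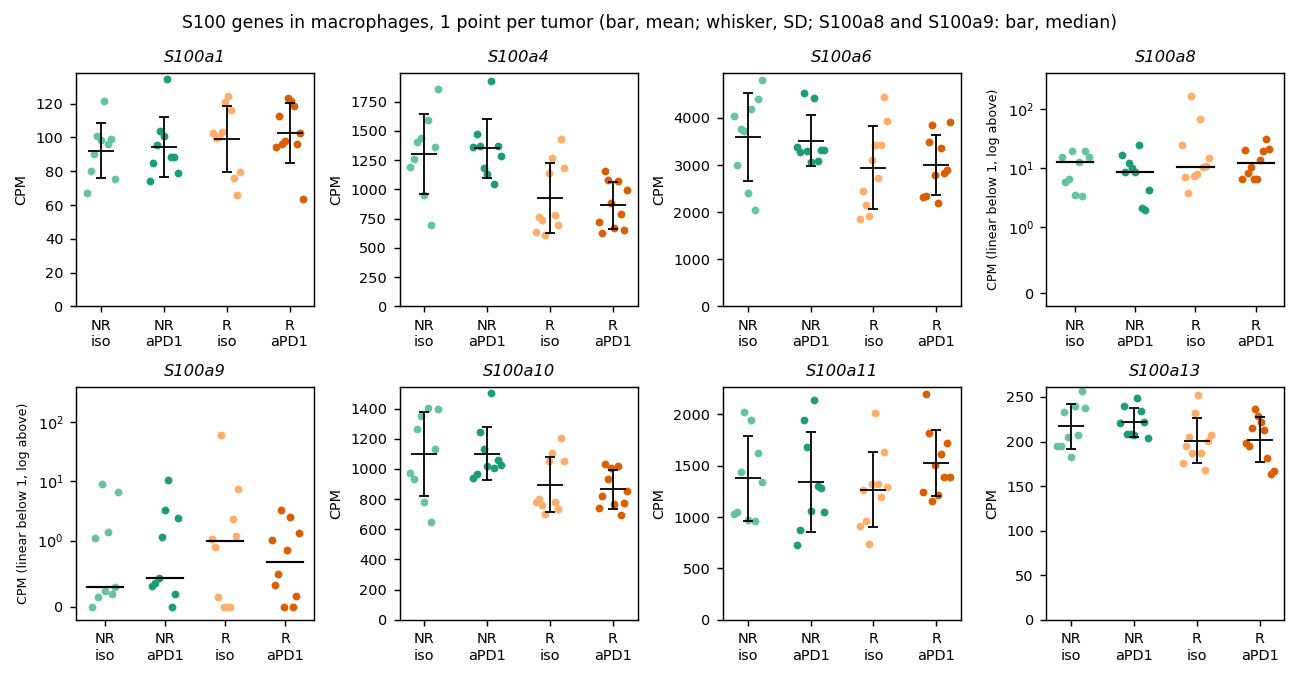
Level of each of the 8 genes (CPM) in the macrophages of each tumor, one panel a gene, for non-responder (NR) and responder (R) hosts given isotype or aPD1. Points are tumors (9, 9, 10 and 10), and bars are means with SD, or medians for S100a8 and S100a9. S100a4 sits lower in both responder groups, with overlap, while S100a11 and S100a1 cover the same range in both classes.

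S100a10, its closest companion in level, ran from 692 over 809 to 1202 CPM in responder macrophages and from 647 over 1042 to 1504 CPM in non-responder macrophages. It was lower in 13 of 16 pairs, and its log2 difference of −0.27 ± 0.09 did not pass the test (adjusted p = 0.0605, edgeR). With the pool as a block S100a10 did pass (−0.29 ± 0.09, adjusted p = 0.0393, edgeR). S100a6 had medians of 2867 and 3351 CPM (−0.22 ± 0.11, adjusted p = 0.269). S100a11 had medians of 1324 and 1292 CPM, S100a13 of 199.9 and 215 CPM and S100a1 of 101 and 93.0 CPM. None of these passed the test, with adjusted p of 0.814, 0.524 and 0.36 (edgeR).

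S100a8 in macrophages ran from 3.84 over 10.6 to 166.9 CPM in responder tumors and from 1.95 over 9.49 to 25.02 CPM in non-responder tumors. Its log2 difference of 1.05 ± 0.41 did not pass the test (adjusted p = 0.129, edgeR) and was 0.32 without the tumors of pool 12. It was −0.08 within pools 1 to 5 and 1.68 within pools 8 to 12. S100a9 was too low to be tested. In all cells together S100a8 (1.39 ± 0.48, adjusted p = 0.118) and S100a9 (1.46 ± 0.62, 0.253) were higher in value in responder tumors without passing the test (edgeR), and stood at 0.40 and 0.29 without pool 12 and at 0.38 and 0.07 with the pool as a block. Responder tumors held 1 to 115 granulocytic-like cells (median 8.5) and non-responder tumors 0 to 20 (median 8).

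In the granulocytic-like cells themselves S100a8 was 17771 CPM in the median responder tumor and 16275 in the median non-responder tumor. Over the 16 tumors with at least 10 such cells the log2 difference was 0.50 ± 0.40 for S100a8 and 0.45 for S100a9 (adjusted p = 0.599 and 0.718, edgeR). S100a10 stood at −2.54 ± 0.81 there (adjusted p = 0.308), while over all tumors with such cells its means were 273 CPM in responder and 324 CPM in non-responder tumors, with 6 pairs higher, 7 lower and 2 equal. Of 477 genes tested 0 were called by edgeR, 0% of them, with 49 at an unadjusted p under 0.05 and 0 by DESeq2.

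Of 10 binding partners of the family tested in macrophages 3 were lower in responder hosts and none higher by edgeR, beside 2.44% of all genes called as lower. Ahnak, the scaffold that S100a10 and annexin A2 attach to the membrane, changed by −0.51 ± 0.11 (adjusted p = 0.00205), Anxa2 by −0.47 ± 0.10 (0.00288) and Anxa1, the partner of S100a11, by −0.45 ± 0.11 (0.00739). These calls were lost under 3, 4 and 6 of 31 alternatives. The median over the 10 was −0.13 against −0.0072 over all genes tested. Summed, the 10 ran from 1819 over 2237 to 2599 CPM in responder tumors and from 2178 over 2709 to 3268 CPM in non-responder tumors, which overlap. Of 5 receptors and carriers of calprotectin tested (7 listed, among them Tlr4, Cd36 and Bsg), 0 were called, with a median of −0.0033.

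Of 12 monocyte genes tested 3 were lower in responder macrophages and 0 higher, beside 2.44% of all genes called as lower, namely Fn1 (−0.96 ± 0.15, adjusted p = 5.69e-05, edgeR), the chemokine receptor Ccr2 (−0.50, 0.00699) and the matrix proteoglycan Vcan (−1.004, 0.0243), with a list median of −0.35. The summed list ran from 4983 over 8726 to 12136 CPM in responder tumors and from 6436 over 9647 to 12877 CPM in non-responder tumors. Of 11 mature macrophage genes 2 were lower and 1 higher, beside 2.44% and 3.81% of all genes: the folate receptor Folr2 (−1.58, 0.00108) and the mannose receptor Mrc1 (−0.58, 0.0278) were lower and the complement gene C1qb (0.44, 0.043) was higher, with a list median of 0.15. Of these calls, that of C1qb was lost under 21 of 31 alternatives, Mrc1 under 13, Vcan under 9, Ccr2 under 5, Folr2 under 3 and Fn1 under 2. The 5 granulocyte genes tested of 14 had a median of 0.44, and Il1r2, a decoy receptor for interleukin-1, was higher (0.96 ± 0.25, 0.0133; lost under 8 of 30). Their part in the S100a4 difference was not tested. Of the clusters counted as macrophages, cluster 4 had the most S100a4. It made up 1.87% to 12.0% (median 5.73%) of macrophages in responder tumors and 4.05% to 18.4% (median 7.40%) in non-responder tumors.

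Within single clusters the difference in S100a4 had different sizes. In cluster 26 it ran from 195 over 478 to 763 CPM in responder tumors and from 409.7 over 804 to 1359.5 CPM in non-responder tumors, a log2 difference of −0.66 ± 0.13 (adjusted p = 0.000939, edgeR). Medians in cluster 2 were 1199 and 1684 CPM (−0.37 ± 0.10, adjusted p = 0.0172) and in cluster 5 1238 and 1574 CPM (−0.45 ± 0.10, 0.00648). Cluster 4 had medians of 2008 and 2244 CPM (−0.19 ± 0.08, 0.357). The cDC2-like cluster 14 had medians of 1810.3 and 1933.5 CPM (−0.08 ± 0.06, 0.729). Of 16 pairs of the same pool and treatment, the responder tumor was the lower one in 14 in each of clusters 2, 4 and 5. It was the lower one in 13 pairs in cluster 26 and in 12 in cluster 14. S100a4 was the 1 member called in clusters 2, 26 and 5, where 3.89%, 7.72% and 4.41% of genes were called (1.55%, 2.83% and 1.43% as lower), and 0 members were called in clusters 4 and 14 (0.465% and 0.526% of genes).

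**Figure D4:**
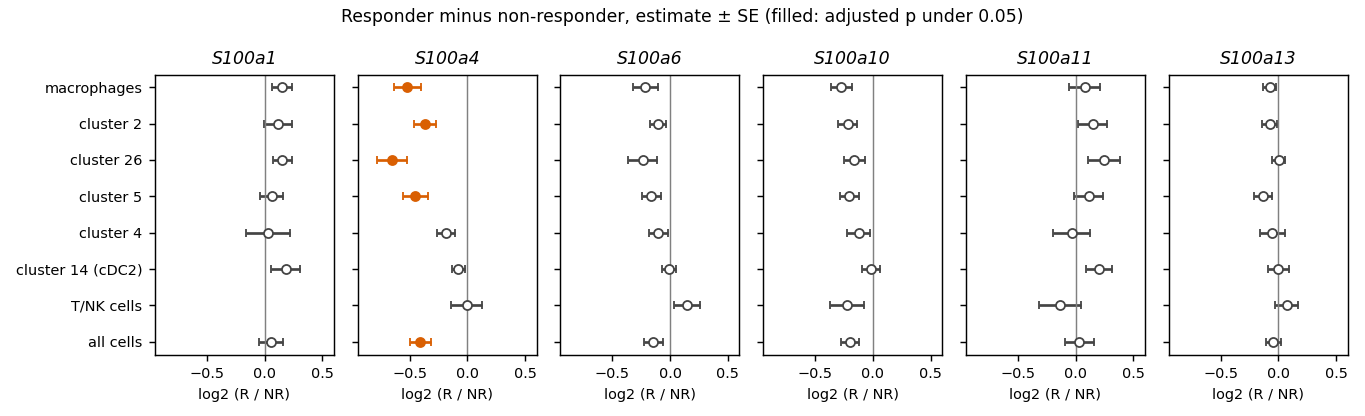
Responder minus non-responder log2 difference with its SE (edgeR) for 6 genes in macrophages, in single clusters, in T/NK-like cells and in all cells. S100a4 lies at −0.66 in cluster 26, −0.52 in macrophages and −0.41 in all cells, and close to 0 in T/NK-like cells (−0.01) and in cluster 14 (−0.08).

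Whether the S100a4 difference itself differed between clusters was tested over tumors that held both, 18 responder against 18 non-responder, by permuting the class (two-sided, 100000 permutations, 6 pairs of clusters, chosen after the values were seen). The responder minus non-responder difference was lower in cluster 26 than in cluster 14 by −0.65 ± 0.15 on the log2(CPM + 1) scale (permutation p = 8e-05, adjusted 0.00048) and than in cluster 4 by −0.50 ± 0.16 (p = 0.00338, adjusted 0.00676). Cluster 5 was lower than cluster 14 (−0.32 ± 0.09, adjusted p = 0.00312 by the same permutation test) and than cluster 4 (−0.24 ± 0.10, 0.0245). Cluster 2 was lower than cluster 14 (−0.29 ± 0.10, adjusted 0.00801) and not called against cluster 4 (−0.18 ± 0.11, 0.105). Of these 5 clusters, the pair with most S100a4 (4 and 14) had the smallest class differences, and the permutations treat tumors of a strain as independent.

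In T/NK-like cells S100a4 ran from 441 over 1027 to 1222 CPM in responder tumors and from 403 over 915 to 1520.2 CPM in non-responder tumors, a log2 difference of −0.01 ± 0.14 (adjusted p = 0.993, edgeR). S100a10 stood at −0.22 ± 0.15 (0.469), and 0 of 5 members tested were called, against 3.51% of genes. With cluster 24 added 0 of 6 were called, and S100a4 stood at 0.08 ± 0.14 (0.857). By permutation, the macrophage difference in S100a4 was lower than the one in T/NK-like cells by −0.53 ± 0.21 (p = 0.0181), which did not hold after adjustment over the 5 genes compared (0.0906). In all cells S100a4 was lower in responder tumors (−0.41 ± 0.09, adjusted p = 0.00681, edgeR), in 15 of 16 pairs, with 3.09% of genes called, 1.23% as lower. A sum over all cells cannot tell fewer cells of a type from less RNA per cell.

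After aPD1 no member passed the test in any comparison. In responder macrophages S100a11 had medians of 1448 CPM after aPD1 and 1278 CPM after isotype and was higher in 9 of 10 pairs of the same pool, with a log2 difference of 0.31 ± 0.16 (adjusted p = 0.748, edgeR). In non-responder macrophages it was higher in 4 of 9 pairs (−0.04, adjusted p = 1), and the difference between the classes, 0.35 ± 0.27, did not pass the test (0.838). S100a4 stood at −0.06 in responder and 0.04 in non-responder macrophages (adjusted p = 0.979 and 1). S100a8 in responder macrophages stood at −1.10 ± 0.61 (0.788), with 5 of 10 pairs higher and 5 lower, and at 0.22 ± 0.42 (0.96) without the isotype tumor of C57BL/6J x CC001/UncJ in pool 12. In all cells of responder tumors S100a8 was lower after aPD1 in 7 of 10 pairs and S100a9 in 8 of 10 (−1.63 ± 0.73 and −1.98 ± 0.91, both adjusted p = 1). Without the same isotype tumor, left out after the values were seen, these were 0.05 ± 0.46 for S100a8 and 0.04 ± 0.66 for S100a9 (both adjusted p = 1, edgeR). In all cells of non-responder tumors S100a8 stood at −0.66 ± 0.50 and S100a9 at −0.87 ± 0.71, and neither was called. S100a13 in T/NK-like cells was higher after aPD1 in 10 of 10 responder pairs and in 5 of 9 non-responder pairs, with medians of 366 and 333 CPM in responder tumors. That contrast was not fitted, and how many of all genes were higher in as many pairs was not counted. The S100a13 pairs are thus a description and no call. No gene at all was called in these fits (0% of 11164 and 11307 genes in macrophages). Unadjusted p was under 0.05 for 736 and 97 genes, and DESeq2 called 0 in either class. For the difference between classes edgeR called 0 of 11775 genes, with 712 at an unadjusted p under 0.05, and DESeq2 called 1, which was no member. With the pool as a block edgeR again called 1 gene, no member, in that difference, with 1438 at an unadjusted p under 0.05. The block gave 0 calls in both aPD1 fits in macrophages, with 1620 and 378 genes at an unadjusted p under 0.05.

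Across the 8 hosts the macrophage levels of S100a1 and S100a4 differed (edgeR F test over 48 tumors, adjusted p = 0.000125 and 0.00823), while 51.2% of genes tested were called. S100a9 was called as well (adjusted p = 0.00965 by the same F test), but at a level of only 3.45 CPM. Of its 954 macrophage UMIs 467 were in 1 isotype tumor of C57BL/6J x CC001/UncJ. The S100a9 call was kept under all 17 alternatives, among them the fit without the pool of that tumor. At so low a level the call is still no firm host difference. S100a1 had its lowest tumors in C57BL/6J x CC075/UncJ hosts, at 63.6, 77.8 and 102.5 CPM (lowest, median, highest), and its highest median in C57BL/6J x CC002/UncJ hosts, at 116, 121 and 125 CPM, both of them responder strains. C57BL/6J itself stood at 71.6, 96.5 and 114 CPM and C57BL/6J x CC036/UncJ at 67.0, 82.5 and 95.6 CPM. The range of C57BL/6J x CC002/UncJ lay above those of all hosts but C57BL/6J x CC079/TauUncJ (98.6, 102.2 and 134.5 CPM) and C57BL/6J x CC007/UncJ (97.2, 109.0 and 142.7 CPM). The highest value of C57BL/6J x CC007/UncJ came from its aPD1 tumor in pool 6, which held only 27 macrophages. The overlaps between hosts depended on the scaling. After TMM scaling the lowest C57BL/6J x CC002/UncJ tumor was at 119.97 CPM, under the highest tumors of C57BL/6J x CC079/TauUncJ (133.5 CPM), C57BL/6J x CC001/UncJ (123.8 CPM) and C57BL/6J (122.5 CPM) and above that of C57BL/6J x CC007/UncJ (116.9 CPM). S100a8 (0.0563), S100a13 (0.0514), S100a10 (0.105), S100a6 (0.123) and S100a11 (0.409) did not pass the test.

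**Figure D5:**
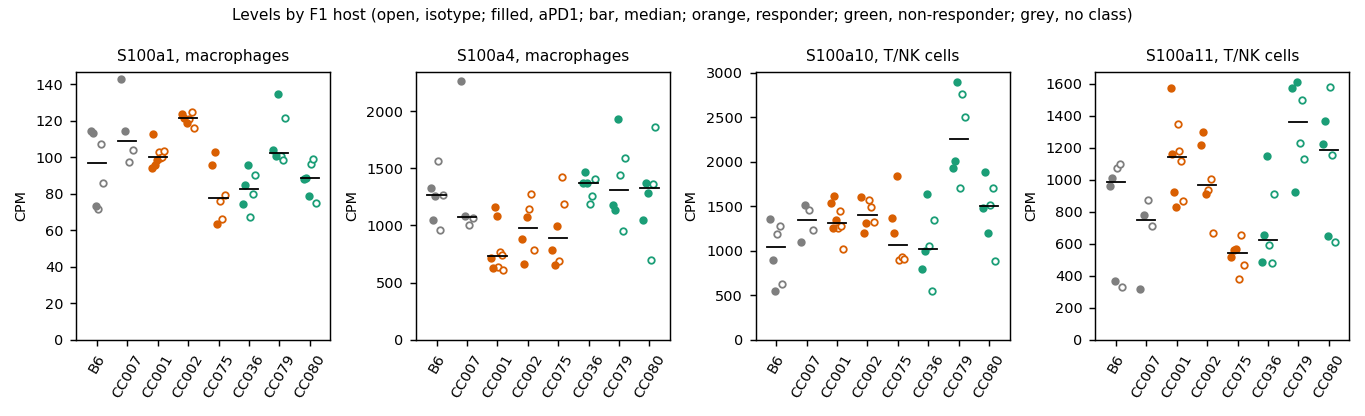
S100a1 and S100a4 in macrophages and S100a10 and S100a11 in T/NK-like cells (CPM) by host, one point a tumor and bars at the host median, with F1 hosts named by their Collaborative Cross strain and C57BL/6J as B6. The 3 responder hosts have the 3 lowest S100a4 medians, from 729 to 978 CPM, and C57BL/6J x CC079/TauUncJ has the highest S100a10 median in T/NK-like cells, at 2255 CPM.

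The host medians of S100a4 in macrophages were 729 CPM in C57BL/6J x CC001/UncJ, 891 in C57BL/6J x CC075/UncJ and 978 in C57BL/6J x CC002/UncJ. They were 1311 CPM in the F1 hosts with CC079/TauUncJ, 1324 with CC080/TauUncJ and 1368 with CC036/UncJ. The hosts without a class, C57BL/6J x CC007/UncJ (1072 CPM) and C57BL/6J (1262 CPM), lay between. Without C57BL/6J x CC001/UncJ, the lowest host, the class difference was −0.42 (adjusted p = 0.0397, edgeR).

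In T/NK-like cells S100a10 and S100a11 were the 2 members called between hosts (adjusted p = 0.00155 for both, edgeR F test), with 23.2% of genes called. S100a10 stood at 1699.5, 2255 and 2892 CPM in C57BL/6J x CC079/TauUncJ, above the highest tumors of C57BL/6J x CC036/UncJ (549.9, 1025 and 1637 CPM) and of C57BL/6J (546, 1046 and 1355 CPM). S100a11 was highest in the same host, at 926, 1363 and 1609 CPM, and lowest in C57BL/6J x CC075/UncJ, at 381, 540.2 and 655 CPM. With the pool as a block 0 members were called in T/NK-like cells (7.37% of genes called), and S100a4 and S100a9 but not S100a1 in macrophages (13.7%). Each pool held tumors of only 2 hosts, and C57BL/6J x CC007/UncJ shared all its pools with C57BL/6J. Host and pool are thus partly confounded, and the fits without the block leave the pool out.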

How the data were processed

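Single-cell RNA sequencing (10x 5′ chemistry) was done on MC38 tumors of 8 hosts. The deposited table held UMI counts per gene and cell, which the authors had made with Cell Ranger on GRCm38, filtered on mitochondrial and ribosomal expression, split by hashtag and clustered in Seurat 5.0.1 after correction for processing date. Such dates are not used here. Counts were summed per tumor within cell classes (named by listed markers, except clusters 5 and 25), single clusters or all cells, and CPM was taken over all UMIs of the same cells. Tests used edgeR's quasi-likelihood fit (TMM scaling, filterByExpr) with Benjamini-Hochberg adjustment over all genes tested and a threshold of 0.05. Treatment was a covariate in the class and host fits. In the main aPD1 fits it was the tested term, and host and pool were left out. The SE of those fits thus includes the spread between hosts. The script was tested on simulated data. DESeq2 and other settings are compared in the closing section. Clusters served as deposited, no doublet was removed, and depth differences enter CPM of rare cells most.

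The members, lists and markers were chosen with earlier results of these data known. All 8 members are named, and of each list up to 4 genes by smallest p among those called. The pool number pairs tumors because a pool was 1 library. Deviations from group means in macrophages correlated at a median of 0.14 (−0.13 to 0.49, 40 of 72 pairs over 0.1) within pools and −0.0096 between pools. Nothing in the labels says that tumors share an animal, except for 2 with 1 animal identifier. Positions and promoters are from RefSeq for GRCm38.p6, by symbol, with 7 of 8 promoters listed.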

Additional observations from a re-analysis of the deposited data

Results flagged for a closer look

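Of 126 groups of 4 to 10 tumors examined, 16 held a tumor that lay far from the others by Dixon's criterion. Its rate of about 1 in 20 is for independent and normal values. The groups here pool hosts, share tumors and hold skewed values, so that rate is no measure for them. In macrophages the isotype tumor of C57BL/6J x CC001/UncJ in pool 12 stood apart at 166.9 CPM of S100a8 and 60.2 CPM of S100a9. In all its cells S100a8 was at 748.3 CPM and S100a9 at 817.4 CPM, and 6.00% of its cells were granulocytic-like. The aPD1 tumor of C57BL/6J x CC079/TauUncJ in pool 5 stood apart in macrophages with 134.5 CPM of S100a1, 1927 of S100a4 and 10.6 of S100a9, and in all cells with 1929 CPM of S100a4 and 1557.2 of S100a10. The aPD1 tumor of C57BL/6J x CC075/UncJ in pool 11 was low in macrophage S100a1 (63.6 CPM) and high over all cells in S100a8 (107.9 CPM) and S100a9 (110.3 CPM).

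Among hosts without a class, the aPD1 tumor of C57BL/6J x CC007/UncJ in pool 6, with 53 cells, had 2259.3 CPM of S100a4 in its 27 macrophages and 146.4 CPM of S100a9 over all cells, and the aPD1 tumor of C57BL/6J in pool 6 had 2.49 CPM of S100a9 in macrophages. The isotype tumor of C57BL/6J x CC036/UncJ in pool 8 had 85.0 CPM of S100a9 over all cells.

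The class difference in S100a4 was compared between cell clusters by permutation tests on 6 pairs of clusters, chosen after the differences were seen and with the tumors of a strain taken as independent. On the log2(CPM + 1) scale the responder minus non-responder difference was lower in cluster 26 than in clusters 14 and 4 by −0.65 and −0.50, in cluster 5 than in clusters 14 and 4 by −0.32 and −0.24, and in cluster 2 than in cluster 14 by −0.29 (18 tumors in each class). For cluster 2 against cluster 4 it was −0.18, which did not pass (adjusted permutation p = 0.105).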

How the results depend on the processing

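S100a4 in macrophages was lower in responder hosts under every alternative run. It was called without each pool in turn (−0.59 to −0.48, adjusted p 0.00132 to 0.0191, edgeR) and under 17 of 21 others. The 4 exceptions were tumors summed per strain (−0.44, 6 sums), pools 1 to 5 (−0.53, 20 tumors), pools 8 to 12 (−0.53, 18) and isotype tumors (−0.48, 19). With the aPD1 tumors alone, also 19, it was called. Why the call was lost in the exceptions was not tested. Where 1 member was called in macrophages in the main fit, 2 were called with library size alone, DESeq2, the pool as a block, the pool range as a term, and without the F1 hosts with CC002/UncJ or CC075/UncJ or the 2 tumors of 1 animal identifier, 0 in those 4 exceptions, and 1 to 2 without a pool (2 without pool 3 or 8). The added member was S100a10, or S100a1 without CC075/UncJ. With the pool as a replicate block S100a4 was at −0.54 (adjusted p 0.00539).

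In T/NK-like cells 1 member (S100a10) was called instead of 0 without CC036/UncJ and within pools 1 to 5. In cluster 2 the members called rose from 1 to 2 with DESeq2 (S100a8) and the block (S100a10), in cluster 5 to 2 with DESeq2 (S100a8), and in cluster 4 from 0 to 1 without a filter (S100a9). Between hosts 3 members were called in macrophages, where the main fit called 51.2% of all genes. It was 5 with library size alone or without tumors of under 500 cells, and 3 to 6 without a pool (6 without pool 2). In T/NK-like cells 2 were called, beside 23.2% of all genes in the main fit, 5 without a filter and 0 with the pool block. With unthinned shares of cells 5 of 8 members kept the cluster of their highest share.

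Counts of genes moved more. The 722 in macrophages became 480 without pool 2, 458 without pool 9, 272 and 424 within the pool ranges, 21 in isotype tumors and 4 per strain. The 225 in T/NK-like cells became 356 with the block, 383 with the pool range, 119, 363, 370, 124 and 426 without the hosts with CC002/UncJ, CC075/UncJ, CC036/UncJ, CC079/TauUncJ and CC080/TauUncJ, 143 and 77 within the pool ranges, 153 with cluster 24, and 2 per strain. The 407 in all cells became 225, 232, 242 and 267 without pools 2, 5, 9 and 11. The 359 in cluster 2 became 825 with the block, the 36 in cluster 14 62 to 116 and the 19 in cluster 4 65 to 93 over the alternatives that moved them. Granulocytic-like cells gave 18 without a filter, and host differences gave 1704 genes with the pool block against 6350 in macrophages, and 575 with the block and 2722 without a filter against 1808 in T/NK-like cells. The causes were not tested. Levels of S100a9 outside cluster 16 rest on few UMIs, and 10 of 48 tumors had 0 in macrophages. Strain-level replication is 3 against 3.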

Other observations

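In the macrophages of an isotype tumor of C57BL/6J x CC002/UncJ in pool 12, 27 UMIs of S100a8 stood beside 0 of S100a9 in 112 cells. Outside the 8 members, S100a16 was at 181.6 CPM in the fibroblast-like cluster 22, which held 71.7% of its UMIs, and S100a14 at 37.8 CPM in cluster 25, again with 71.7%.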
